A study of Rattus norvegicus with 16 samples.

Results

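The methionine and one-carbon metabolism genes described here are 10 genes picked by symbol for their known roles, under a rule that takes no measured value. The genes were, however, proposed with earlier results of these data known. All 10 (Mat1a, Mat2a, Gnmt, Ahcy, Bhmt, Pemt, Cbs, Cth, Mthfd1 and Shmt1) were found among the 17055 gene symbols of the deposited tables, and all 10 had enough reads to be tested in every comparison. Liver RNA came from 48 male Sprague-Dawley rats aged 10 weeks, in 4 groups of 12 rats. In the isoflurane groups, induction and maintenance both used isoflurane, an inhaled anesthetic. In the propofol groups, ketamine-xylazine was injected for induction and anesthesia was kept up with propofol, an intravenous anesthetic, so the induction drug also differs wherever the anesthetics are compared. Within each anesthetic, the Isoflurane-Sepsis and Propofol-Sepsis groups underwent cecal ligation and puncture, in which the tied-off cecum is pierced so that gut content leaks into the abdomen. In the isoflurane control and propofol control groups the cecum was lifted out and put back. All rats were ventilated, and livers were taken 8 h after surgery. Each library was made from the pooled tissue of 3 rats, with 4 libraries a group (16 altogether), so the spread between libraries is a spread between pools. The libraries are numbered 1 to 4 in Isoflurane-Sepsis, 5 to 8 in the isoflurane control group, 9 to 12 in Propofol-Sepsis, and 13 to 16 in the propofol control group.

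In the liver, methionine is joined to ATP to give S-adenosylmethionine, the donor of most cellular methyl groups. Its use leaves S-adenosylhomocysteine, which is split to homocysteine. Homocysteine is either methylated back to methionine, with betaine or a folate as donor, or passed through transsulfuration to cystathionine and then cysteine, a building block of glutathione. The folate cycle carries single carbons, largely from serine, for this remethylation and for nucleotide synthesis. The liver is a main site of methionine breakdown. Adult hepatocytes express Mat1a as their methionine adenosyltransferase, whereas Mat2a serves most other tissues and fetal or dividing liver.

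The 250 bases upstream of the annotated start are shown for 5 of the genes, because they include both methionine adenosyltransferases and the genes that were called in the interaction (Mat1a and Cbs) or between the septic groups (Cth and Shmt1). The sequences are from RefSeq on the GRCr8 build, which is not the build of the counts, and 9 of the 10 genes had an entry. Mthfd1 had none. They are printed 5′ to 3′ on the strand of the gene, for Mat1a chr16:17016918-17017167 on the plus strand and on the minus strand for Mat2a chr4:106053613-106053862, Cbs chr20:9733926-9734175, Cth chr2:249661067-249661316 and Shmt1 chr10:45990342-45990591. Capitals mark matches, on either strand, to the E-box CACGTG, the GC box GGGCGG, the CCAAT box CCAAT, the TATA box TATAAA and the cyclic AMP response element TGACGTCA.
Mat1a: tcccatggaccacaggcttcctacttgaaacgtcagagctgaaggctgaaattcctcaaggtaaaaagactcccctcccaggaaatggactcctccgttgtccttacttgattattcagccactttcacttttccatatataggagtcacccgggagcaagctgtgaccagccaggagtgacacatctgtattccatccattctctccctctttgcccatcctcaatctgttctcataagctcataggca
Mat2a: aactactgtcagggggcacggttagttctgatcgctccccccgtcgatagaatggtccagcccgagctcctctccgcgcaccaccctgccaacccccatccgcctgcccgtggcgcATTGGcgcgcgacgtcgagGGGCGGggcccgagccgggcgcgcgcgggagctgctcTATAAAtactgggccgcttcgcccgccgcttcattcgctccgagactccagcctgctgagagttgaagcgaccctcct
Cbs: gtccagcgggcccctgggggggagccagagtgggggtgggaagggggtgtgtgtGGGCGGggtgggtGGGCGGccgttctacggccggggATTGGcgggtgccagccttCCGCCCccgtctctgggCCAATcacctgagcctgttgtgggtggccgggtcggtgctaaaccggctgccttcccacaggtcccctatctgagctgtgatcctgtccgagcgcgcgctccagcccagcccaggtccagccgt
Cth: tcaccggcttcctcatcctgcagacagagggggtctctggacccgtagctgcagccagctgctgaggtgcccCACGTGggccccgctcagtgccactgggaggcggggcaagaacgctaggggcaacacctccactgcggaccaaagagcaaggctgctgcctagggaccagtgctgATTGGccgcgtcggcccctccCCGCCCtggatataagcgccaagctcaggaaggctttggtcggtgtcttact
Shmt1: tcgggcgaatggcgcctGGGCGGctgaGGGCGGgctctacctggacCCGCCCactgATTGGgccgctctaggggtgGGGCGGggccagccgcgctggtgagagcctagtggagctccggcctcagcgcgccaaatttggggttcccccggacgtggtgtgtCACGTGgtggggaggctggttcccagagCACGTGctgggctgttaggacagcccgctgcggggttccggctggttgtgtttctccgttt

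The window upstream of Mat1a held 3 CpG dinucleotides and none of the 5 motifs. The Mat2a window held 29 CpG, more than 94.0% of the 33469 promoter windows of the same length, whose median was 5. It also held 1 match to GGGCGG, 1 to CCAAT and 1 to TATAAA. Cbs had 17 CpG, Cth 13 and Shmt1 21. CACGTG was present in 2 of the 9 members with an entry, Cth with 1 match and Shmt1 with 2, and in 5.59% of all windows. GGGCGG was present in 6 of 9 members against 30.5% of all windows, CCAAT in 7 of 9 against 34.0%, TATAAA in 2 of 9 (Mat2a and Bhmt) against 12.9%, and TGACGTCA in 0 of 9 against 1.59%. These matches describe the letters of the windows only.

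Each library held between 14199422 and 49937173 reads on genes. Each of the 10 genes had at least 206 counts in every library, the lowest being Cth in library 4. Levels are given as CPM, the usual scaling of a count by its library's total of reads on genes, adjusted by TMM. Since CPM is not corrected for transcript length, levels are compared between groups for a gene and not between genes. The hepatocyte markers named the tissue, with a summed level of 100266 to 157992 CPM for 10 genes including Alb and Ttr, and no hepatocyte marker was at 0. Library 10, of the Propofol-Sepsis group, stood apart in a list of 7 brain markers, which summed to 358 CPM against 4.79 to 24.6 CPM in the other 15 libraries. Its level of Mbp, a myelin protein, was 162 CPM against 1.95 to 12.6 CPM elsewhere. Sepsis responses under propofol that moved by more than 1.5 times or lost their call without library 10 are therefore given with and without it. Because the RNA is of whole tissue, fewer cells of a type and less RNA per cell cannot be told apart.

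Under isoflurane, sepsis was accompanied by lower levels of 6 of the 10 genes and a higher level of 1. Gnmt, Bhmt, Pemt, Cth, Mthfd1 and Shmt1 fell and Mat2a rose, while Mat1a, Ahcy and Cbs did not pass the test at an adjusted p of 0.05 (edgeR quasi-likelihood test, adjusted over all genes). Of all 10361 genes tested, 50.0% were called, 24.4% lower and 25.7% higher. The median log2 fold change of the 10 genes was -0.58, against 0.006 over all genes. Groups did not overlap for 8 of the 10 genes, against 48.7% of all genes.

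Under propofol, 3 of the 10 genes fell with sepsis (Cth, Mthfd1 and Shmt1) and 2 rose (Mat1a and Cbs). Of 10348 genes tested, 42.1% were called, 21.7% lower and 20.4% higher. The median log2 fold change of the 10 genes was -0.18 against -0.002 over all genes, and groups did not overlap for 5 of the 10 genes, against 42.2% of all genes. Cth, Mthfd1 and Shmt1 were called lower in both anesthetics, and no gene was called in opposite directions.

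**Figure D1:**
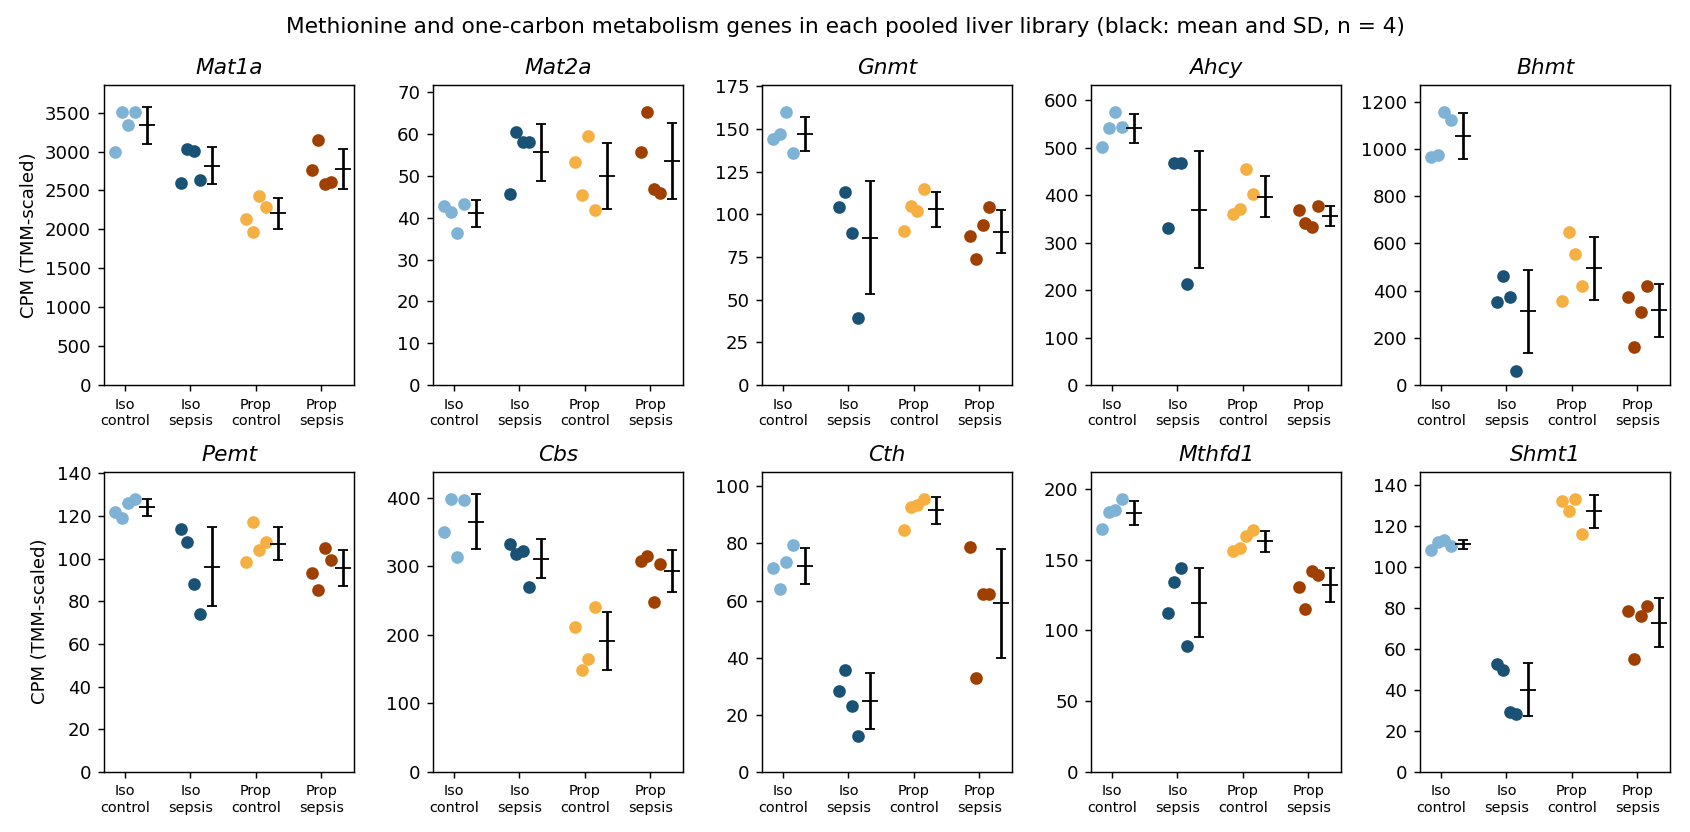
Level of each gene in CPM (vertical axes, starting at 0) in the 4 libraries of each group (points), with the mean and SD (black). For Shmt1 every septic library lies below every control library of the same anesthetic, and for Mat1a and Cbs the propofol controls are the lowest group.

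Mat1a makes S-adenosylmethionine in the adult liver. It stood at 2598, 3039, 3005 and 2640.4 CPM in the Isoflurane-Sepsis libraries and at 2992, 3503, 3343 and 3506 CPM in the isoflurane controls. It stood at 2769, 3143, 2587 and 2606 CPM in the Propofol-Sepsis libraries and at 2136, 1972, 2425 and 2287 CPM in the propofol controls. The isoflurane groups overlapped, whereas every Propofol-Sepsis library was above every propofol control. The log2 fold change with sepsis was -0.24 (SE 0.0892, adjusted p = 0.0504) under isoflurane and 0.33 (SE 0.0825, adjusted p = 0.0107) under propofol. The isoflurane value lay at the threshold and was called in 8 of 15 alternative fits, with adjusted p from 0.0175 to 0.123. In order of mean level, isoflurane control was highest, then Isoflurane-Sepsis, Propofol-Sepsis and propofol control, and the septic groups in the middle did not differ beyond their spread.

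Mat2a encodes the methionine adenosyltransferase of most other tissues. Its levels were 45.6, 60.5, 58.2 and 58.0 CPM in Isoflurane-Sepsis and 42.8, 41.4, 36.3 and 43.3 CPM in the isoflurane controls. Every septic library was above every control, with library 1 the lowest of its group, and the level was 1.36-fold higher (log2 fold change 0.44, SE 0.106, adjusted p = 0.00813). In Propofol-Sepsis the levels were 55.8, 65.2, 46.8 and 46.0 CPM against 53.4, 45.4, 59.5 and 41.9 CPM in the propofol controls. These groups overlapped, with a log2 fold change of 0.09 and a 95% interval from -0.22 to 0.39 (adjusted p = 0.626). Without library 10, which had the highest level, the value was -0.02. The isoflurane control group had the lowest mean, and it overlapped the propofol controls but neither septic group.

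As a ratio within each library, Mat2a gave 1.43, 1.18, 1.09 and 1.23 reads per 100 Mat1a reads in the isoflurane controls and 1.76, 1.99, 1.94 and 2.20 in Isoflurane-Sepsis. These groups did not overlap. In the propofol controls the ratio was 2.50, 2.30, 2.45 and 1.83, and in Propofol-Sepsis it was 2.01, 2.07, 1.81 and 1.76, with overlap. The mean ratio was 1.23 ± 0.146 in isoflurane controls, 1.97 ± 0.182 in Isoflurane-Sepsis, 2.27 ± 0.304 in propofol controls and 1.92 ± 0.152 in Propofol-Sepsis (SD, n = 4). The ratio is of reads without correction for length and was not tested.

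**Figure D2:**
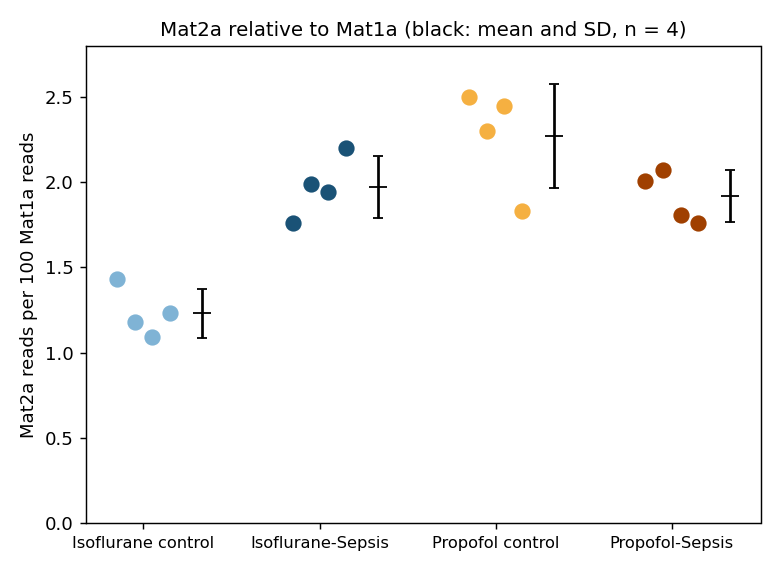
Mat2a reads per 100 Mat1a reads (vertical axis) in each library (points) of the 4 groups, with the mean and SD (black, n = 4). The isoflurane controls, between 1.09 and 1.43, lie below all 12 other libraries.

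Gnmt uses S-adenosylmethionine to methylate glycine and is abundant in the liver. Its level was 104, 113, 89.0 and 39.0 CPM in Isoflurane-Sepsis and 144, 147, 159.8 and 136 CPM in the isoflurane controls. Groups did not overlap, although library 4 was far below the other septic libraries. The log2 fold change was -0.76 (SE 0.273, adjusted p = 0.0434). Without library 4 it was -0.52 (adjusted p = 0.00266), while leaving out library 3, 5, 6, 7 or 8 took the call away, with adjusted p from 0.0690 to 0.0977. In Propofol-Sepsis, Gnmt was at 87.5, 73.8, 93.5 and 104 CPM, overlapping the 90.0, 105, 102 and 115 CPM of the propofol controls, with a log2 fold change of -0.20 (interval -0.45 to 0.04), or -0.11 without library 10.

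Ahcy removes S-adenosylhomocysteine by splitting it to homocysteine and adenosine. In Isoflurane-Sepsis it was at 331.1, 468.1, 467.0 and 212.5 CPM and in the isoflurane controls at 502, 541, 575 and 544 CPM. The groups did not overlap, yet the log2 fold change of -0.54 (SE 0.226) had an adjusted p of 0.0718, and it was called in 5 of 15 alternative fits. In Propofol-Sepsis the range was 334 to 378 CPM against 360.1 to 456 CPM in the propofol controls, with an interval of the log2 fold change from -0.35 to 0.02.

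Bhmt methylates homocysteine with betaine. It showed the lowest fitted fold of the 10 genes under isoflurane, 353, 464, 374 and 59.0 CPM in Isoflurane-Sepsis against 966, 976, 1156 and 1122 CPM in the isoflurane controls. Every septic library lay below every control, and library 4 was far below the rest. The level was 0.297-fold that of the controls (log2 fold change -1.75, SE 0.491, adjusted p = 0.0162), and without library 4 the log2 fold change was -1.40 (adjusted p = 8.45e-05). Under propofol, Bhmt was at 373, 161, 308 and 421 CPM in the septic and 354, 649.9, 556 and 419 CPM in the control libraries. These overlapped (log2 fold change -0.65, SE 0.280, adjusted p = 0.0860), and the value without library 10 was -0.43. Bhmt has a close paralog, Bhmt2, and reads could be divided between them in a way that depends on the counting, so both are uncertain to that extent.

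Pemt methylates phosphatidylethanolamine to phosphatidylcholine and is a large user of S-adenosylmethionine. Its level was 114, 108, 88.0 and 74.1 CPM in Isoflurane-Sepsis and 122, 119, 126 and 128 CPM in the isoflurane controls, without overlap. The log2 fold change was -0.36 (SE 0.126, adjusted p = 0.0393). The call was lost without library 3, 5, 6, 7 or 8, with adjusted p from 0.0662 to 0.0900, and held without library 4 (-0.25, adjusted p = 0.0390). Under propofol the septic range of 85.1 to 105 CPM overlapped the control range of 98.3 to 117 CPM, with a log2 fold change of -0.17 (interval -0.35 to 0.02), or -0.11 without library 10.

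Cbs opens transsulfuration by joining homocysteine to serine. In Isoflurane-Sepsis it was at 333, 318, 322 and 269.9 CPM and in the isoflurane controls at 350.2, 398, 314 and 397 CPM, with overlap (log2 fold change -0.23, SE 0.103, adjusted p = 0.0915). In Propofol-Sepsis it was at 307, 315, 248 and 303 CPM and in the propofol controls at 211, 149, 164 and 241 CPM. There every septic library was above every control, and Cbs was 1.53-fold higher (log2 fold change 0.61, SE 0.149, adjusted p = 0.00902). In order of mean level the groups ran from isoflurane control through Isoflurane-Sepsis and Propofol-Sepsis to propofol control, as for Mat1a.

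Cth completes transsulfuration by releasing cysteine from cystathionine. Its level was 28.2, 35.7, 23.2 and 12.4 CPM in Isoflurane-Sepsis against 71.4, 63.9, 73.5 and 79.6 CPM in the isoflurane controls. All septic libraries were below all controls, at 0.346 of the control level (log2 fold change -1.53, SE 0.260, adjusted p = 0.00159). In Propofol-Sepsis it was 78.8, 32.9, 62.4 and 62.3 CPM against 84.6, 92.7, 93.6 and 95.6 CPM in the propofol controls. These groups did not overlap either, and the log2 fold change was -0.64 (SE 0.208, adjusted p = 0.0326). The lowest septic library was library 10, and leaving it out gave -0.44 (adjusted p = 0.00532). Leaving out any of libraries 11 to 16 took the call away, with adjusted p from 0.0513 to 0.0747, and so did fitting all 16 libraries together (adjusted p = 0.0560).

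Shmt1 transfers a carbon from serine to folate in the cytosol. It was at 52.5, 49.6, 29.1 and 28.3 CPM in Isoflurane-Sepsis and at 108, 112, 113 and 110.0 CPM in the isoflurane controls. Propofol-Sepsis libraries were at 78.5, 55.2, 76.1 and 81.0 CPM and propofol controls at 132, 127, 133 and 116 CPM. Septic and control libraries were apart under both anesthetics, and Shmt1 had the smallest adjusted p of the 10 genes in each. The log2 fold change was -1.48 (SE 0.198, adjusted p = 0.000503) under isoflurane and -0.81 (SE 0.114, adjusted p = 0.000522) under propofol. Without library 4 the isoflurane value was -1.34, and without library 10 the propofol value was -0.69.

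Mthfd1, a cytosolic enzyme that interconverts the one-carbon forms of folate, was at 112, 134, 144 and 89.1 CPM in Isoflurane-Sepsis and at 172, 184, 185 and 193 CPM in the isoflurane controls. In Propofol-Sepsis it was at 131, 115, 142 and 139 CPM against 156, 158, 167 and 171 CPM in the propofol controls. Septic libraries were below control libraries in both. The log2 fold change was -0.61 (SE 0.144, adjusted p = 0.00759) under isoflurane and -0.32 (SE 0.0760, adjusted p = 0.00848) under propofol.

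**Figure D3:**
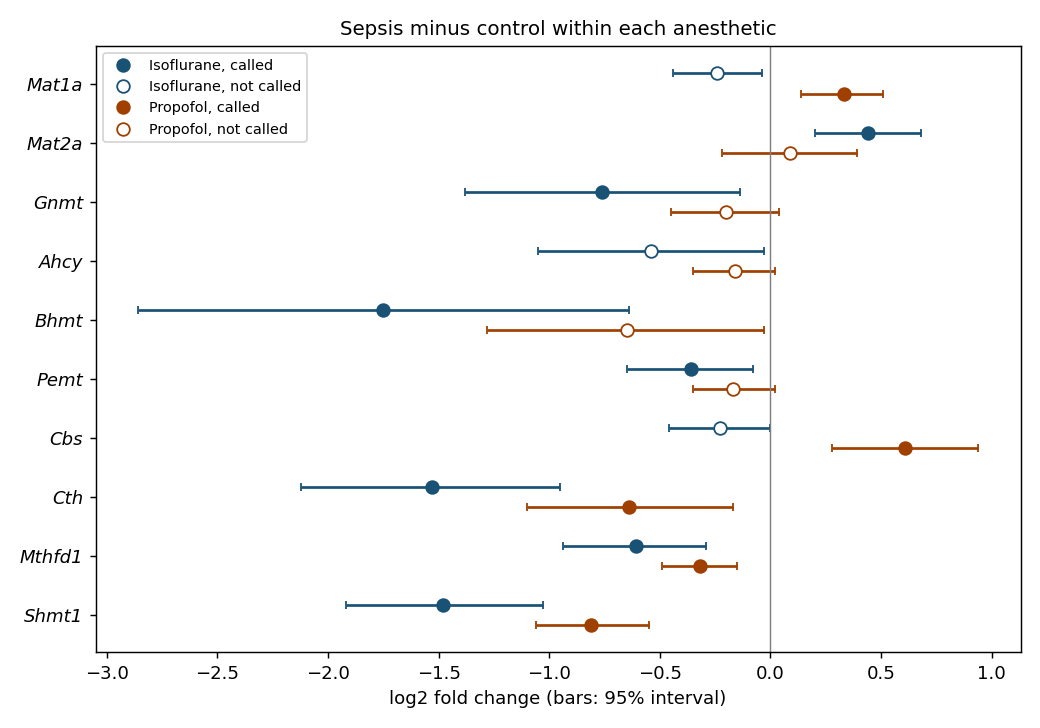
Log2 fold change, sepsis minus control, for each gene under isoflurane (blue) and propofol (brown), with 95% intervals (bars), filled where the adjusted p was below 0.05. Cth and Shmt1 show the lowest values called in both, while Mat1a and Cbs have intervals above 0 under propofol only.

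Within the septic groups, single libraries moved many of the genes together. Library 4 had the lowest level of its group for 8 of the 10 genes (all but Mat1a and Mat2a, which were lowest in library 1), and library 10 for 6 of the 10 (Gnmt, Bhmt, Pemt, Cth, Mthfd1 and Shmt1). The coefficient of variation over libraries was 8.28% to 56.3% in Isoflurane-Sepsis against 1.98% to 11.1% in isoflurane controls, the upper value being that of Bhmt in the septic and of Cbs in the control group. With libraries 4 and 10 both left out, an alternative chosen after seeing the data, 7 genes were called under isoflurane and 5 under propofol, the same numbers as with all libraries.

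Markers of other cells moved with sepsis as well. The neutrophil and monocyte list (9 genes found, Ly6c at 0 in every library) summed to 1256 to 2075 CPM in Isoflurane-Sepsis and 149 to 201 CPM in isoflurane controls, and to 1156 to 3279.6 CPM in Propofol-Sepsis and 388 to 645 CPM in propofol controls. Without Lcn2, which hepatocytes also express, the sums were 35.7 to 115 against 16.9 to 19.5 CPM and 36.4 to 52.9 against 18.3 to 25.3 CPM. The hepatocyte list summed to 122959.8 to 138174 CPM in Isoflurane-Sepsis against 147594 to 157992 CPM in isoflurane controls, where 4 of 10 markers were called lower, and to 100266 to 112623 CPM in Propofol-Sepsis against 110651 to 124159 CPM in propofol controls, again with 4 of 10 called lower. Library 4 had the highest hepatocyte sum of its group. The endothelial list summed to 112 to 128 against 158 to 197 CPM under isoflurane and to 151 to 159 against 183 to 224 CPM under propofol. Of its 6 markers, 4 were called lower under isoflurane, and 2 lower and 1 higher (Pecam1) under propofol. The lymphocyte list overlapped under isoflurane, with highest sums of 18.5 and 14.4 CPM in septic and control libraries, and under propofol it summed without overlap to 10.0 to 11.9 against 12.9 to 15.3 CPM. Of its 7 markers found, only 2 had enough reads to be tested. Cd8a was called higher under isoflurane and Cd4 lower under propofol. The Kupffer cell list overlapped in its sums (282 to 445 CPM over all libraries), yet 5 of 7 markers (Cd5l, Marco, Cd68, Cd163 and Csf1r) were called higher and Clec4f lower under isoflurane, and 2 higher and 1 lower under propofol. The stellate cell list, at 122 to 176 CPM over all libraries, had 3 of 7 markers called higher and 1 lower under isoflurane and 2 lower under propofol. The bile duct list summed to 23.5 to 31.4 against at most 24.7 CPM under isoflurane and to 16.5 to 24.4 against 16.3 to 17.9 CPM under propofol, with 2 of 3 and 1 of 3 tested markers called higher. The part of these shifts in the values of the 10 genes was not tested.

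A fit of all 16 libraries tested whether the response to sepsis differed between the anesthetics (the interaction, isoflurane minus propofol). Of 10621 genes tested, 2.72% were called, 1.66% higher and 1.06% lower, and of the 10 genes 2 were, Mat1a and Cbs, both lower. For Mat1a the difference of the log2 fold changes was -0.58 (SE 0.122, 95% interval -0.83 to -0.32, adjusted p = 0.0286), and for Cbs it was -0.85 (SE 0.193, interval -1.26 to -0.44, adjusted p = 0.0360). Both calls were near the threshold. That of Mat1a was lost without library 6, 7, 8, 9, 12, 13 or 14 (adjusted p 0.0514 to 0.0668), and that of Cbs without library 2, 3, 5, 6, 8, 9, 12, 13, 14 or 15 (0.0503 to 0.0793). Under these omissions the difference of Mat1a stayed between -0.60 and -0.52 and that of Cbs between -0.90 and -0.74.

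For the other 8 genes the interaction did not pass the test. Cth had a difference of -0.90 (interval -1.66 to -0.15, adjusted p = 0.149) and Shmt1 one of -0.68 (interval -1.19 to -0.16, adjusted p = 0.120). Bhmt, at -1.11, had an interval from -2.38 to 0.17, and Mat2a, at 0.34, one from -0.05 to 0.73. The remaining 4 lay between -0.57 (Gnmt) and -0.20 (Pemt), with intervals that included 0. Without libraries 4 and 10 together, Cth (-0.88, adjusted p = 0.0237) and Bhmt (-0.98, adjusted p = 0.0418) were called as well, making 4. Shmt1 was called in 1 of 22 alternatives, the fit without library 1 (adjusted p = 0.0237).

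The control livers themselves differed between the anesthetics in all 10 genes. Of 10314 genes tested, 43.3% were called, 21.6% higher and 21.7% lower in isoflurane. Mat1a, Gnmt, Ahcy, Bhmt, Pemt, Cbs and Mthfd1 were higher in isoflurane controls, and Mat2a, Cth and Shmt1 were lower. Bhmt was 2.13-fold higher (log2 1.09, SE 0.160, adjusted p = 0.000400), Cbs 1.91-fold (0.93, SE 0.141, 0.000487) and Mat1a 1.51-fold (0.60, SE 0.0724, 0.000126). Gnmt was 1.43-fold and Ahcy 1.36-fold higher, while Pemt at 1.16-fold and Mthfd1 at 1.13-fold differed little. Cth was at 0.788, Mat2a at 0.820 and Shmt1 at 0.875 of the propofol control level. The call of Mat2a (adjusted p = 0.0429) was lost without library 5, 6, 7, 8, 13 or 15, and that of Mthfd1 without library 6, 7, 8, 13 or 14. Groups did not overlap for 9 of the 10 genes, Mat2a being the exception, against 40.3% of all genes.

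These differences depended on which libraries estimated the spread. With all 16 libraries in one fit, 2 of the 10 genes were called, Mat1a (adjusted p = 0.000236) and Cbs (adjusted p = 0.000262), and Bhmt had an adjusted p of 0.0712. With scaling by library totals alone, which moved the median of all genes by -0.15 on the log2 scale, Pemt (0.07) and Mthfd1 (0.02) were not called. The hepatocyte list also stood higher in isoflurane controls, 147594 to 157992 against 110651 to 124159 CPM. Of its 10 markers, 8 were called higher and 1, Hnf4a, was called lower. The part of this list in the values of the 10 genes was not tested. Anesthetic and induction drug cannot be told apart here, in septic livers or in the interaction. The deposited tables of the anesthetics also carry different name prefixes, and whether these mark separate processing is not stated in the sources at hand.

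In septic livers, 2 of the 10 genes differed between the anesthetics, Cth and Shmt1, both lower in isoflurane, where 19.3% of 10272 genes were called and 8.66% were called lower. Cth was at 0.420 of the Propofol-Sepsis level (log2 -1.25, SE 0.334, adjusted p = 0.0336), and library 10, at 32.9 CPM, overlapped the Isoflurane-Sepsis range of 12.4 to 35.7 CPM. Shmt1 was at 0.547 (log2 -0.87, SE 0.227, interval -1.38 to -0.36, adjusted p = 0.0316) without overlap, which 25.6% of all genes showed. Without library 10 the log2 values were -1.45 for Cth and -0.98 for Shmt1, both called. Without library 3, 9, 11 or 12 neither was called, and without library 4 Cth alone was, at -1.03.

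For the other 8 genes the interval of the septic difference included 0. It ran from -0.19 to 0.23 for Mat1a, from -0.16 to 0.32 for Cbs, from -0.26 to 0.36 for Mat2a, from -0.31 to 0.32 for Pemt and from -0.48 to 0.20 for Mthfd1. The intervals of Ahcy (-0.45 to 0.55), Gnmt (-0.70 to 0.58) and Bhmt (-1.21 to 1.18) were wide, and a difference of the size seen between the controls was within the interval for each of these 3. The control differences of Pemt (0.21) and Mthfd1 (0.17) also lay within their septic intervals. For Mat1a and Cbs the control differences of 0.60 and 0.93 lay outside the septic intervals, and that of Mat2a (-0.29) lay just outside. In order of mean level, Gnmt, Bhmt and Mthfd1 ran from isoflurane control through propofol control and Propofol-Sepsis to Isoflurane-Sepsis. Cth and Shmt1 had the same order with the control groups exchanged. Ahcy and Pemt had it with the septic groups exchanged, and for these 7 genes the septic neighbours overlapped, except for Shmt1. The comparisons within and between anesthetics share libraries and are not independent of each other.

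**Figure D4:**
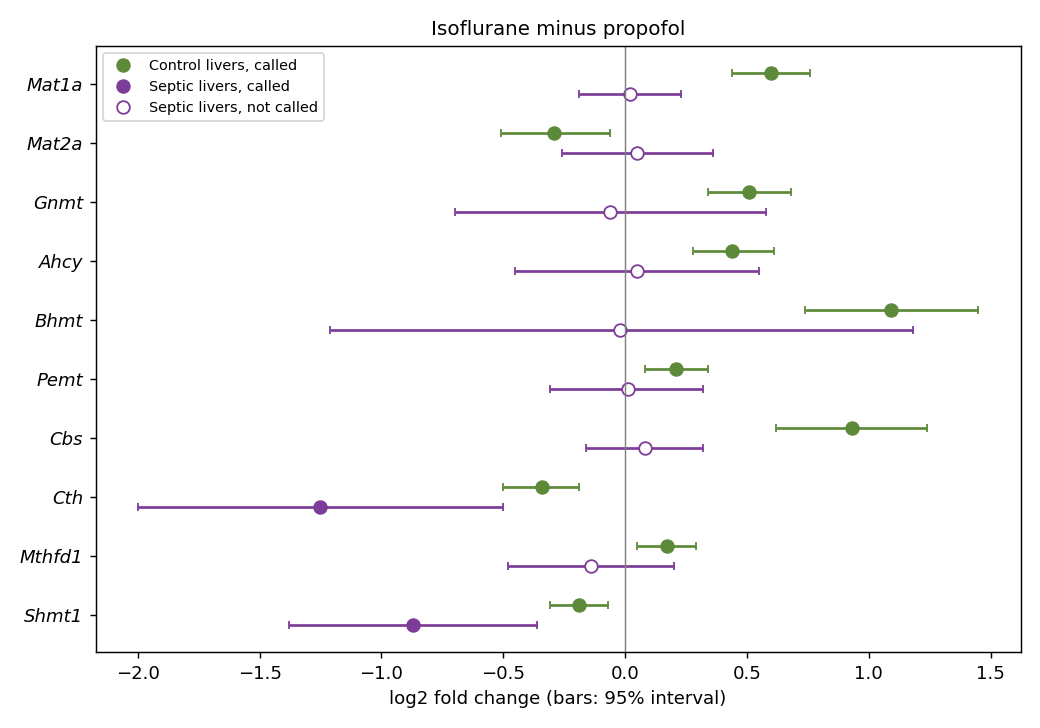
Log2 fold change, isoflurane minus propofol, for each gene in control livers (green) and septic livers (purple), with 95% intervals (bars), filled where the adjusted p was below 0.05. In septic livers the points of 8 genes lie near 0, and those of Cth and Shmt1 lie at -1.25 and -0.87.

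The other genes of the pathway were examined in 7 lists holding 73 genes found in the tables. Under isoflurane 41 of 72 tested were called, 11 higher and 30 lower, against 50.0% of all genes (25.7% higher, 24.4% lower), with a median log2 fold change of -0.25 (all genes 0.006). Under propofol 52 of 73 were called, 14 higher and 38 lower, against 42.1% of all genes (20.4% higher, 21.7% lower), with a median of -0.32 (all genes -0.002). Without library 10 the propofol number was 49. The counts of each list below are to be read against these same shares of all genes. The interaction called 2 of 73, Nnmt and Gclc, against 2.72% of all genes.

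Among 11 genes of the methionine cycle and other methyltransferases, 5 fell under each anesthetic and 2 rose under propofol. Bhmt2, a homocysteine methyltransferase, was at 43.3, 58.5, 56.7 and 23.7 CPM in Isoflurane-Sepsis against 156, 161, 177 and 193 CPM in its controls (log2 fold change -1.91, adjusted p = 0.000476) and had -1.41 under propofol, also called. As3mt, an arsenic methyltransferase, fell, with log2 fold changes of -1.02 and -0.77 under isoflurane and propofol. Nnmt, which methylates nicotinamide, rose under propofol by 1.16 (adjusted p = 1.11e-05), from 181 to 219 CPM in the controls to 431 to 497 CPM. Under isoflurane Nnmt had a log2 fold change of 0.25 (adjusted p = 0.0966), from controls already at 436 to 473 CPM, and the interaction was -0.92 (adjusted p = 0.0101).

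Of 7 genes of choline and betaine oxidation, 3 fell and 1 rose under isoflurane, and 4 fell and 1 rose under propofol. Slc6a12, a betaine transporter, was at 3.38 to 4.69 CPM in Isoflurane-Sepsis against 16.6 to 18.4 CPM (log2 fold change -2.06, adjusted p = 1.05e-05) and fell by 1.57 under propofol. Chdh, which begins the oxidation of choline to betaine, fell (-1.01 and -0.57), as did Sardh, the sarcosine dehydrogenase (-1.03 and -0.44), and under propofol each lost its call in 5 of 15 alternatives. Pipox, a peroxisomal oxidase of sarcosine and pipecolic acid, fell by 1.31 under propofol and had -0.64 (adjusted p = 0.0773) under isoflurane.

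Of 18 genes of the folate cycle, folate transport and glycine cleavage, 9 fell and 1 rose under isoflurane, and 12 fell under propofol. Ftcd, which passes the formimino group of histidine to folate, fell (-1.41 and -0.91). Tyms, thymidylate synthase, fell (-1.26 and -0.54). The rise was in Mthfd2, a mitochondrial folate enzyme, at 66.6, 56.7, 33.3 and 77.0 CPM in Isoflurane-Sepsis against 25.1 to 26.8 CPM in its controls (log2 fold change 1.17, adjusted p = 0.00205). Under propofol Mthfd2 had a log2 fold change of 0.27 with overlapping groups.

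Of 10 genes of cysteine, glutathione and sulfide metabolism, 4 fell under isoflurane and 7 under propofol. Mpst, a sulfurtransferase, fell (-1.19 and -0.95). Gclc, the catalytic subunit of glutamate-cysteine ligase, was at 118, 113, 162 and 94.3 CPM in the propofol controls and 42.9 to 54.6 CPM in Propofol-Sepsis (log2 fold change -1.35, adjusted p = 0.000186). Under isoflurane it was at 28.9 to 58.3 CPM in septic and 39.7 to 49.3 CPM in control libraries (-0.03, adjusted p = 0.896). The interaction for Gclc was 1.31 (SE 0.261, adjusted p = 0.0244), and its call was lost without library 7 or 12. Gclm, the modifier subunit, fell by 1.03 under propofol, and its interaction of 0.88 had an adjusted p of 0.0991.

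Of the genes of methionine salvage and polyamines, 5 rose and 5 fell under each anesthetic, of 13 tested under isoflurane and 14 under propofol. Of all genes, 50.0% were called under isoflurane and 42.1% under propofol. Sat1, which acetylates spermidine and spermine, was at 336, 773, 1627 and 787 CPM in Isoflurane-Sepsis against 115 to 212 CPM (log2 fold change 2.34, adjusted p = 0.00237) and rose by 1.52 under propofol, or by 1.18 without library 10. Smox, spermine oxidase, rose by 2.59 under isoflurane and had 0.61 (adjusted p = 0.142) under propofol, where library 10 was at 13.3 CPM and the next at 6.04 CPM. Without library 10 the propofol value of Smox was 0.16 (adjusted p = 0.433). Paox, a polyamine oxidase, rose by 1.11 under propofol. Adi1, a dioxygenase of the salvage pathway that returns methylthioadenosine to methionine, fell (-0.75 and -0.53).

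Of 5 genes of serine synthesis and breakdown, 1 fell under isoflurane, and 2 fell and 1 rose under propofol. Phgdh, the first enzyme of serine synthesis, fell under isoflurane (-1.13), a call lost without library 3, 5, 6, 7 or 8, and under propofol (-0.83). Sds, serine dehydratase, rose by 1.50 under propofol (adjusted p = 0.0421, lost in 7 of 15 alternatives, among them those without library 9, 10, 13 or 15, with 1.21 and adjusted p = 0.0832 without library 10) and had -0.18 under isoflurane. Of 8 genes that build phosphatidylcholine and phosphatidylethanolamine from choline and ethanolamine, 4 rose and 3 fell under isoflurane, and 5 rose and 3 fell under propofol. Chka, choline kinase, was at 65.7, 134, 239 and 99.6 CPM in Isoflurane-Sepsis against 31.8 to 43.7 CPM (log2 fold change 1.86, adjusted p = 0.00288) and rose by 0.96 under propofol. Chkb rose by 0.60 and 0.51. Of the ethanolamine kinases, Etnk2 fell (-1.35 and -1.46), whereas Etnk1 rose by 1.01 under propofol and had 0.43 (adjusted p = 0.0563) under isoflurane.

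**Figure D5:**
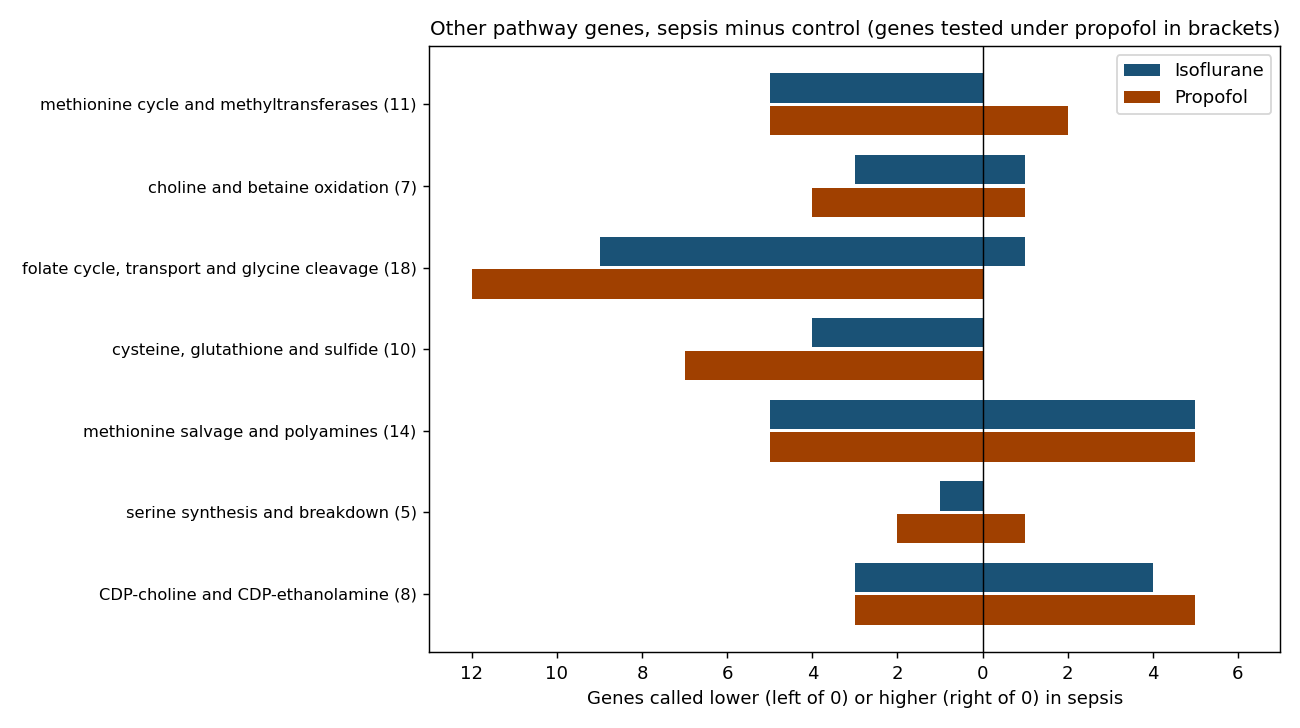
Number of genes called lower (bars to the left of 0) or higher (bars to the right of 0) with sepsis in each pathway list, under isoflurane (blue) and propofol (brown), with the genes tested under propofol in brackets. In the folate list 9 and 12 genes were lower, while the polyamine list was split into 5 and 5 under both.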

How the data were processed

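Poly(A) RNA of 16 pooled rat livers was sequenced from a directional library. The authors deposited counts, whole numbers of reads per gene symbol without normalization. The submitters' processing notes name STAR and the rn5 build. The program and annotation behind the counting are not stated in the sources at hand. Entries that named no gene (21.61% to 25.39% outside genes, 1.074% to 1.351% ambiguous) were left out. Groups came from the sample labels. Counts were fitted in R 4.3.3 with edgeR 4.0.16 and tested by quasi-likelihood, 4 libraries against 4, and all 16 for the interaction, with TMM scaling. Genes were kept by filterByExpr (minimum count 10, minimum total 15). P-values were adjusted by Benjamini and Hochberg over all genes tested, with 0.05 as threshold. The SE is the log2 fold change divided by the square root of F, and 95% intervals use edgeR's degrees of freedom. The fits were also run on simulated counts. These had far fewer changed genes than were called with sepsis and no outlying library, so that run did not test such conditions. Same-group libraries differed by at least 3.35 in chi-square per degree of freedom, so none was the same library sequenced again. This value cannot exclude separate libraries made from the same pool. Each test set the difference between groups against the spread between pools, not between single rats. Alternatives were RLE size factors, library totals, DESeq2 1.42.0, genes of all counts kept, genes with mean CPM of 1 or more, all 16 libraries in one fit, and each library left out.

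The rule for the 10 genes reads no value, but these genes and the pathway and marker lists were proposed with earlier results of these data known. Named were all 10 genes, pathway genes called with an absolute log2 fold change of at least 1 in a sepsis comparison, the gene with the smallest adjusted p per list and sepsis comparison, and for Mat1a and Mat2a the 3 genes most like them in log2 CPM (prior count 2). Some genes that this rule picks are left unnamed and without values here, though list counts include them. A gene symbol written for a list but not found in the tables is not analysed here. Motifs were searched in the 250 bases upstream of RefSeq starts, leaving out bases after the start.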

Additional observations from a re-analysis of the deposited data

Results flagged for a closer look

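The interaction over 16 libraries was called for Mat1a (-0.58 on the log2 scale, adjusted p = 0.0286), Cbs (-0.85, adjusted p = 0.0360), Nnmt (-0.92, adjusted p = 0.0101) and Gclc (1.31, adjusted p = 0.0244). Of 22 alternatives, the call was lost in 7 for Mat1a, 10 for Cbs and 2 for Gclc, and in 0 for Nnmt. Anesthetic and induction drug cannot be told apart in these values.

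In 6 of 148 sets of 4 libraries, for the 37 genes named from the 10 and the pathway lists, 1 library lay far from the other 3 by Dixon's criterion (95% level), which chance alone gives in about 1 of 20 sets. Mat2a was low in library 1 of Isoflurane-Sepsis, at 45.6 CPM against 58.0 CPM for the next. Slc6a12 was high in library 8 at 18.4 CPM, Chka low in library 14 at 12.7 CPM and Chkb low in library 7 at 30.2 CPM. In library 10, which also held the brain markers, Sat1 was high at 230.2 CPM against 117 CPM for the next and Smox at 13.3 CPM against 6.04 CPM.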

How the results depend on the processing

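No paired analysis was possible because the groups share no replicate numbers. Of 810 values of the 10 genes under alternative settings, 701 kept direction and call, 64 lost a call, 19 gained one and 26 changed sign. For 27 named pathway genes (23 named by the rule and 4 of serine metabolism described between the controls) these numbers were 803, 25, 12 and 6 of 846. Within an anesthetic, leaving out libraries 4 and 10 is the same fit as leaving out library 4 (isoflurane) or 10 (propofol). That fit is counted again in these totals and in the 15 alternatives of a sepsis response. The count of genes called by edgeR stayed within 1.5 times under isoflurane (5 to 10) and propofol (4 to 6). With each library left out it was 0 to 3 for the interaction (0 without library 6, 8, 9, 12, 13 or 14), 8 to 10 for the controls and 0 to 2 for the septic groups (0 without library 3, 9, 11 or 12). It was 4 for the interaction without libraries 4 and 10, and 2 for the controls with all 16 libraries in one fit, where the spread is shared with the septic libraries. For the other shifts the cause was not tested.

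No value that changed sign was called in either fit. Under propofol Mat2a ranged from -0.02 (without library 10) to 0.18. In the septic comparison, library totals gave Mat1a -0.13, Mat2a -0.09, Ahcy -0.09, Pemt -0.14 and Cbs -0.07. Leaving out single libraries gave ranges across 0, for Mat1a from -0.01 to 0.09, Mat2a from -0.01 to 0.16, Gnmt from -0.21 to 0.18, Ahcy from -0.08 to 0.24, Bhmt from -0.26 to 0.33 and Pemt from -0.09 to 0.11. Without libraries 4 and 10 Gnmt was 0.10 and Bhmt 0.11. Under isoflurane the ranges with single libraries left out were -0.21 to 0.13 for Gclc, -0.36 to 0.02 for Gclm and -0.75 to 0.10 for Sds. At 4 pools per group, the wide intervals of Bhmt and Gnmt limit what could be seen between septic livers.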

Other observations

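Between the control groups, genes of serine metabolism, chosen here after their values were seen, stood apart by anesthetic. Phgdh, Psat1 and Psph, the enzymes of serine synthesis, were lower in isoflurane than in propofol controls by log2 values of -1.65, -1.50 and -1.02 (adjusted p = 4.05e-06, 5.47e-06 and 5.88e-06), with Phgdh at 31.7, 30.2, 30.2 and 32.4 CPM against 93.1, 117, 103 and 77.7 CPM. Sds and Sdsl, which break serine down, were higher by 2.70 (adjusted p = 0.00105) and 0.64 (adjusted p = 0.000309), and Gldc of the glycine cleavage system by 1.08 (adjusted p = 0.000849). Sds was at 166, 218, 128 and 209.9 CPM in isoflurane controls and at 40.0, 5.47, 17.9 and 47.4 CPM in propofol controls. In septic livers the synthesis genes were lower in isoflurane too (-1.96, -1.37 and -0.87, with adjusted p = 0.0219, 0.0129 and 0.0267), whereas Sds (1.00, interval -0.10 to 2.10) was not called. In all, 51 of 71 pathway genes were called between controls, against 43.3% of all genes, and 20 of 72 between septic groups, against 19.3%. Anesthetic and induction drug cannot be told apart here.

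Across the 16 libraries, the genes whose log2 CPM was most like that of Mat1a among 8893 genes were Slc25a15 (Pearson r = 0.91) and Arg1 (0.90), and those most like Mat2a were Tmem185b (0.90), Spire1 (0.89) and Lrrfip1 (0.86). The libraries share groups and depth, so these values only describe likeness over the 4 groups.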
